A study of Pogona vitticeps with 24 samples.

Results

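*LHX8*, *PITX1* and *MSX2* encode homeodomain transcription factors that are known from mouse tooth germs, and their levels were read in dental tissue of the bearded dragon lizard *P. vitticeps*. The 3 genes were chosen by name, with earlier results of these data known, and are 3 of the 11126 genes of the deposited table and 3 of the 47 homeobox genes found in it. RNA was sequenced from dental lamina (DL) epithelium and from the mesenchyme around it, collected by laser capture microdissection from hatchlings at a stage that the study matches to tooth initiation in embryos. Tissue came from the anterior jaw position, where the teeth of wild-type (WT) animals are pleurodont (attached to the inner side of the jaw), and from the posterior position, where they are acrodont (fused to its crest). Animals were either WT or *Sca*/+, the latter with 1 copy of the Scaleless mutation of *EDA*, which encodes the signal ectodysplasin. The study's methods name 3 animals of each genotype, and they state that the dental phenotype of the *Sca*/+ samples could be judged only roughly before sectioning. From that rough look the study proposes that all 3 mutant samples had the abnormal anterior dentary typical of mutants. No group was treated with an agent.

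Homeodomain proteins bind DNA through a conserved domain and take part in setting where along the jaw, and in which tissue layer, a tooth forms. In the mouse, signals from the oral epithelium such as FGF8 and BMP4 induce homeobox genes in the mesenchyme below, and the mesenchyme then signals back to the epithelium. *Lhx8*, of the LIM class, acts together with *Lhx6* in the mesenchyme of mouse molars. *Pitx1*, of the paired-like class, is expressed in mouse oral epithelium and in mandibular mesenchyme, and it is also known as a gene of hindlimb identity. *Msx2* responds to BMP signals, is expressed in both layers and in the enamel knot of mouse teeth, and is needed for normal enamel.

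The 24 samples form 8 groups of 3, and the authors deposited 1 value per gene and group as log2 CPM, named as a mean. Log2 CPM is the log2 of the reads of a gene relative to the size of its library, here a size scaled by normalization. Of the 8 columns, 7 could be used. The column of WT posterior epithelium holds a fill series, with steps of 1e-09 between rows, in 11121 of its 11126 rows, those of the 3 genes among them, so no value of WT acrodont epithelium is given. The values of the others are whole multiples of 1 smallest step (within 0.0065 CPM, 100% of values), and the depth lay between 789353 and 3264515 steps. A step is treated as 1 count below, and the 95% intervals are exact and cover counting error only. They hold nothing of the spread between animals, so no difference was tested. A difference of 1 log2 unit or more counts as higher or lower, and shares of all genes refer to the 9987 genes whose mean reached 3 log2 CPM, which *LHX8*, *PITX1* and *MSX2* all reach. In these bulk tissues, fewer cells of a type and less RNA per cell cannot be told apart.

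*LHX8* was a mesenchymal gene in every usable pair of tissues, with its lowest level in *Sca*/+ anterior epithelium. In mesenchyme it stood at 62.8 CPM in WT anterior, 89.0 CPM in WT posterior, 71.6 CPM in *Sca*/+ anterior and 63.5 CPM in *Sca*/+ posterior tissue. In epithelium it stood at 26.9 CPM in WT anterior, 4.88 CPM in *Sca*/+ anterior and 16.8 CPM in *Sca*/+ posterior tissue. All 4 mesenchyme columns thus lay above all 3 epithelium columns. Within mesenchyme, no neighbors in the order of the levels differed beyond their counting intervals, the largest gap being 0.31 log2 units from WT posterior to *Sca*/+ anterior tissue (-0.18 to 0.82). Columns further apart did, with 0.50 for WT posterior minus WT anterior (0.07 to 0.94) and -0.49 for *Sca*/+ posterior minus WT posterior tissue (-0.89 to -0.08). In epithelium both gaps between neighbors passed their counting intervals. WT anterior lay 0.68 above *Sca*/+ posterior (0.04 to 1.31), and that column lay 1.78 above *Sca*/+ anterior (0.79 to 2.92). The range of 4.19 log2 units over the 7 columns was wider than that of 97.0% of all genes.

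*PITX1* had its highest levels in *Sca*/+ epithelium and its lowest in WT anterior mesenchyme. In epithelium its level was 72.3 CPM in WT anterior, 175.8 CPM in *Sca*/+ anterior and 116.0 CPM in *Sca*/+ posterior tissue. In mesenchyme it was 20.9 CPM in WT anterior, 53.8 CPM in WT posterior, 84.6 CPM in *Sca*/+ anterior and 88.9 CPM in *Sca*/+ posterior tissue. Every *Sca*/+ column lay above every usable WT column, although the nearest of them, *Sca*/+ anterior mesenchyme and WT anterior epithelium, differed by only 0.23 log2 units (-0.24 to 0.69). WT posterior epithelium has no value, and in WT anterior tissue *PITX1* was higher in epithelium than in mesenchyme. Whether the order of the genotypes holds in posterior epithelium is therefore not known. At the other end of the order, WT anterior mesenchyme lay 1.36 below its neighbor, WT posterior mesenchyme (0.69 to 2.06). The range was 3.07 log2 units, or 8.40-fold.

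*MSX2* was low in all columns. It stood at 13.5 CPM in WT anterior, 12.7 CPM in *Sca*/+ anterior and 18.0 CPM in *Sca*/+ posterior epithelium. In mesenchyme the values were 7.22 CPM in WT anterior, 1.85 CPM in WT posterior, 13.0 CPM in *Sca*/+ anterior and 8.50 CPM in *Sca*/+ posterior tissue. The level of WT posterior mesenchyme rests on 2 steps, the lowest value that its column holds, where 136 genes share it. No neighbors in the order of the 7 levels differed beyond their counting intervals, and steps per column lay between 2 and 58. Columns further apart did in some pairs, and the interval of WT posterior mesenchyme (0.22 to 6.70 CPM) lay below those of all epithelium columns. The compartments overlapped, since *Sca*/+ anterior mesenchyme lay between the epithelium columns.

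**Figure D1:**
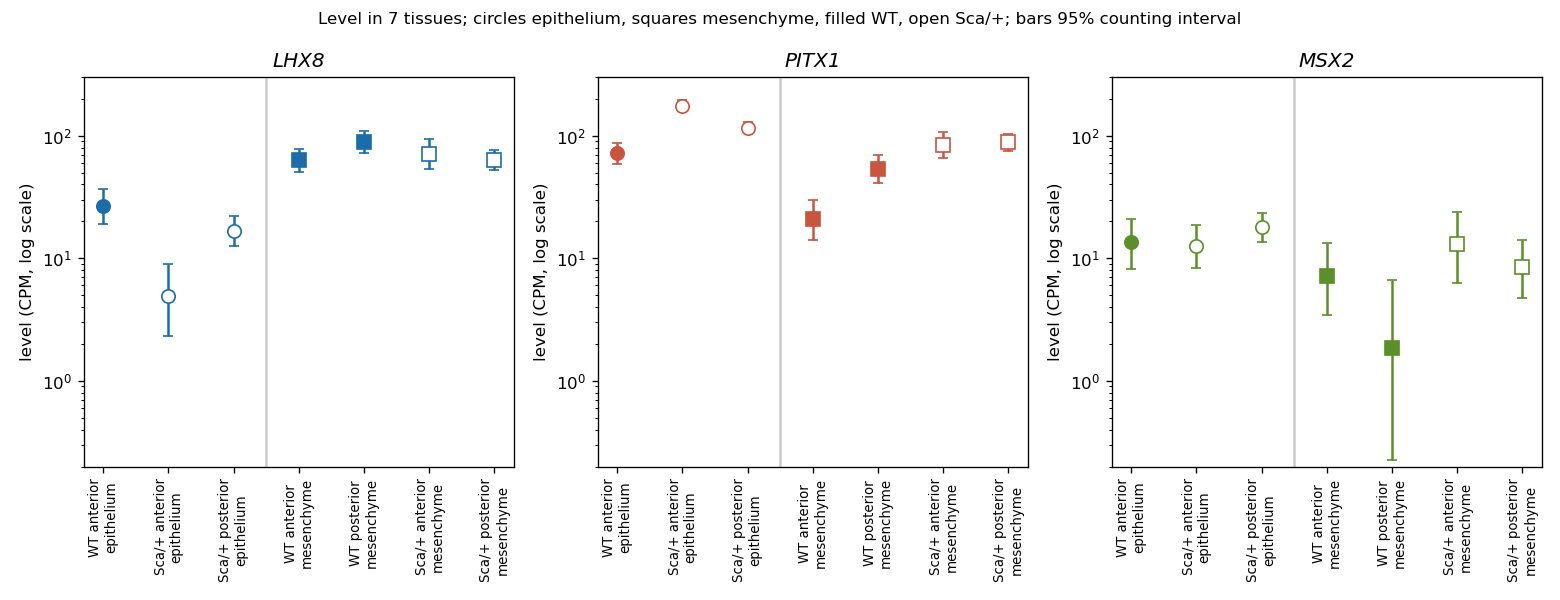
Level of each gene (y axis, CPM on a log scale) in the 7 usable tissues (x axis), with circles for epithelium, squares for mesenchyme, filled symbols for WT, open symbols for *Sca*/+ and bars for the 95% counting interval. *LHX8* is high in all 4 mesenchyme columns and lowest at 4.88 CPM in *Sca*/+ anterior epithelium, and *PITX1* runs from 20.9 CPM in WT anterior mesenchyme to 175.8 CPM in *Sca*/+ anterior epithelium. The intervals of *MSX2* overlap between neighbors in the order of its levels. Its interval in WT posterior mesenchyme (0.22 to 6.70 CPM) lies below those of all epithelium columns.

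Epithelium was compared with mesenchyme in the 3 pairs that have both columns. Epithelium minus mesenchyme, *LHX8* differed by -1.22 log2 units in WT anterior tissue (-1.81 to -0.66), by -3.87 in *Sca*/+ anterior tissue (-5.01 to -2.89) and by -1.92 in *Sca*/+ posterior tissue (-2.41 to -1.44). *PITX1* differed by 1.79 (1.18 to 2.44), 1.06 (0.67 to 1.46) and 0.38 (0.11 to 0.66) in the same order, and *MSX2* by 0.90 (-0.28 to 2.17), -0.03 (-1.13 to 1.18) and 1.09 (0.25 to 2.01). In each pair 2 of the 3 genes passed 1 log2 unit, *LHX8* as lower and *PITX1* or *MSX2* as higher. Of all genes 21.3% passed in the WT anterior pair (8.66% higher and 12.7% lower), 25.8% in the *Sca*/+ anterior pair (11.5% higher and 14.3% lower) and 25.8% in the *Sca*/+ posterior pair (12.1% higher and 13.7% lower). The compartment difference of *LHX8* was larger in *Sca*/+ than in WT anterior tissue by -2.65 log2 units (-3.93 to -1.47), a change larger in size than that of 98.1% of all genes. For *PITX1* the same change was -0.73 (-1.50 to 0.01).

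Markers of the compartments went with their labels in all 3 pairs. Of 16 mesenchymal markers such as *POSTN* and *COL1A1*, 16, 15 and 16 were lower in epithelium (medians -2.17, -3.14 and -2.05), and of 10 epithelial markers found in the table, such as *DSP* and *CDH1*, 9, 8 and 9 were higher (medians 1.39, 1.42 and 1.58). The *LHX8* difference was thus smaller than the median of the mesenchymal markers in WT anterior tissue and larger in *Sca*/+ anterior tissue. Mesenchymal markers summed to between 10620 and 19128 CPM in the epithelium columns and to between 53295 and 151868 CPM in the mesenchyme columns, so these transcripts were read in the epithelium cuts too. Their part in the *LHX8* levels there was not tested.

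The comparison of *Sca*/+ with WT asks how tissue of either position differs with the *EDA* mutation. In anterior epithelium *LHX8* was lower and *PITX1* higher in *Sca*/+ tissue, and 2 of the 3 genes passed 1 log2 unit, against 22.2% of all genes (12.2% higher and 10% lower). *LHX8* differed by -2.46 (-3.63 to -1.43), a 5.52-fold change from 38 to 10 steps, and 72 of the 9987 genes had a more negative difference. *PITX1* differed by 1.28 (0.96 to 1.61), with 665 genes above it. *MSX2* differed by -0.08 (-0.99 to 0.85), an interval that still allows nearly a doubling or halving. The mesenchymal markers had a median of -0.27 in this comparison, with 4 of 16 lower and none higher, and their sum went from 12382 CPM in WT to 10620 CPM in *Sca*/+ tissue. The most negative of them was *TWIST1*, a transcription factor of mesenchyme, at -1.42. Endothelial markers (8 of 10 in the table) summed to 99.2 and 32.7 CPM, and 3 of them were lower by more than *LHX8* was, at -2.86, -2.85 and -2.65. These rest on 14, 3 and 6 steps in *Sca*/+ against 70, 15 and 26 in WT tissue. A level of 3 steps is the lowest value of the *Sca*/+ column, which 78 genes share. Leukocyte markers (4 of 8) summed to 69.4 and 35.7 CPM. The part of these cells in the *LHX8* difference was not tested.

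In anterior mesenchyme *PITX1* was 4.04-fold higher in *Sca*/+ than in WT tissue, a difference of 2.01 log2 units (1.36 to 2.70), and 141 of 9987 genes lay above it. It was the only gene of the 3 past 1 log2 unit there, against 19.9% of all genes (11.5% higher and 8.37% lower). *LHX8* differed by 0.19 (-0.33 to 0.69) and *MSX2* by 0.85 (-0.57 to 2.27). The mesenchymal markers had a median of 0.88, with 8 of 16 higher and 1 lower. The epithelial markers had a median of 0.30 in this comparison, none of 10 was past 1 log2 unit, and the highest, *DSP*, a protein of desmosomes, lay at 0.75. Their sum was 4149 CPM in WT and 6135 CPM in *Sca*/+ tissue. The *PITX1* difference was larger than that of each of these 10 markers. Leukocyte markers (4 in the table) summed to 376.0 CPM in WT and 191.2 CPM in *Sca*/+ tissue, with 2 lower and none higher. The lowest of them, *PTPRC*, lay at -3.13. Of 5 markers of bone and dentin 1 was higher and none lower, and that gene, *IBSP*, lay above *PITX1* at 2.24. The part of tissue makeup in the *PITX1* difference was not tested.

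In posterior mesenchyme *PITX1* differed by 0.73 (0.28 to 1.19), short of 1 log2 unit, and the genotype difference at this position was smaller than at the anterior position by 1.29 log2 units (interval of the change -2.12 to -0.48). *LHX8* differed by -0.49 (-0.89 to -0.08). The median of the epithelial markers was 0.52, with 3 of 10 higher, and that of the mesenchymal markers -0.60 (1 of 16 higher, 3 lower), on the sides of *PITX1* and *LHX8*, and their part in these differences was not tested. *MSX2* differed by 2.20 (0.09 to 5.37) and was the only one past 1 log2 unit, against 17% of all genes (8.82% higher and 8.13% lower), but this fold stands on 15 against 2 steps. The same WT column of 2 steps gave *MSX2* its other large difference, between the WT positions, so that these values are not independent.

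**Figure D2:**
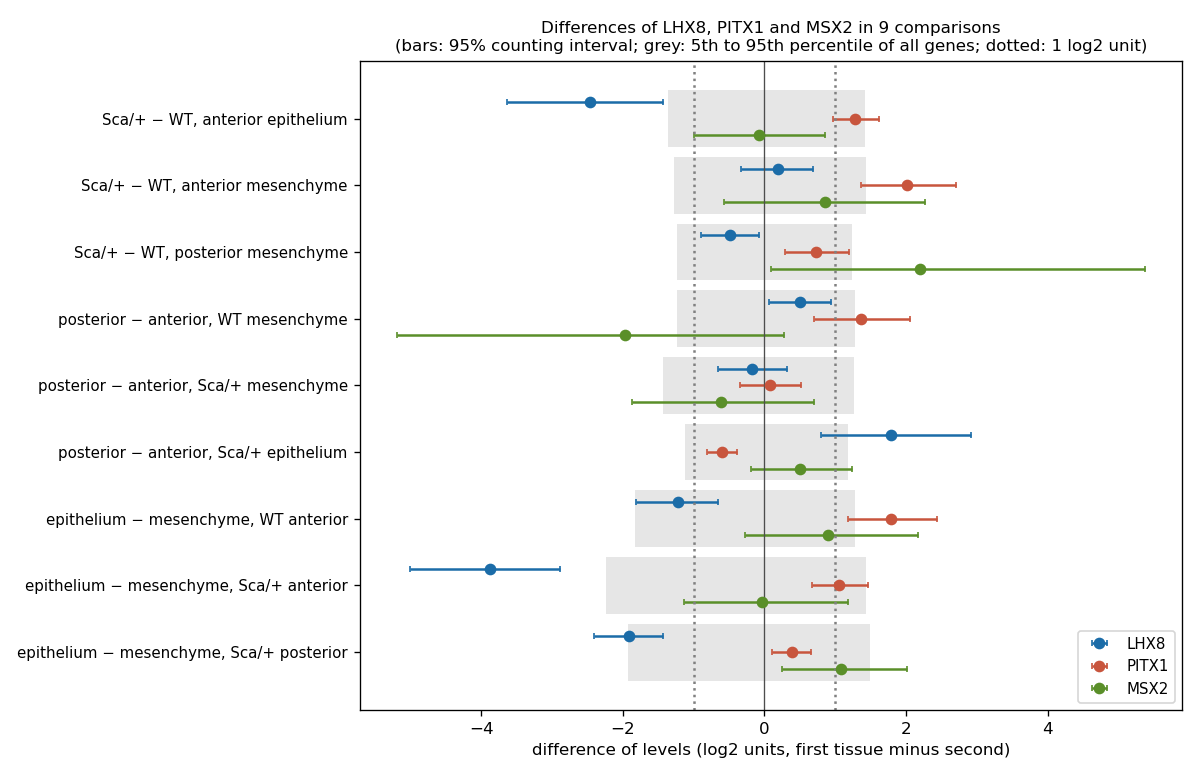
Difference of each gene (x axis, log2 units, first tissue minus second) in the 9 comparisons (y axis), with bars for the 95% counting interval, gray bands for the range from the 5th to the 95th percentile of all genes and dotted lines at 1 log2 unit. *LHX8* lies left of the band in *Sca*/+ minus WT anterior epithelium at -2.46 and *PITX1* right of it in anterior mesenchyme at 2.01. The intervals of *MSX2* are the widest in most comparisons. Those of *LHX8* are wider where *Sca*/+ anterior epithelium is compared with WT anterior or *Sca*/+ posterior epithelium.

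The positions were compared in mesenchyme of both genotypes and in *Sca*/+ epithelium. Posterior minus anterior, *PITX1* differed by 1.36 in WT mesenchyme (0.69 to 2.06) and *MSX2* by -1.96 (-5.19 to 0.27), which made 2 of the 3 genes past 1 log2 unit against 17.1% of all genes (9.15% higher and 7.97% lower). *LHX8* differed by 0.50 there (0.07 to 0.94). Epithelial markers had a median of -0.45 and a highest value of 0.95 for *ESRP1*, a splicing factor of epithelia, and 7 of 16 mesenchymal markers were higher, with a median of 0.90. Markers of bone and dentin had a median of 1.82 (3 of 5 higher), those of muscle, nerve and glia of 3.74 (2 of 2 higher) and those of endothelium of 0.93 (3 of 8 higher, 1 lower), and all 4 leukocyte markers were lower. The part of this tissue makeup in the position differences was not tested. In *Sca*/+ mesenchyme none of the 3 passed, against 18.7% of all genes (8.34% higher and 10.4% lower), and *LHX8*, *PITX1* and *MSX2* differed by -0.17 (-0.65 to 0.32), 0.07 (-0.35 to 0.51) and -0.61 (-1.87 to 0.70). The level of *PITX1* thus differed between positions in WT mesenchyme, and in *Sca*/+ mesenchyme it did so by less than the counting error. In *Sca*/+ epithelium *LHX8* was higher at the posterior position by 1.78 (0.79 to 2.92), the only gene of the 3 past 1 log2 unit, against 13.7% of all genes (7.02% higher and 6.68% lower). *PITX1* differed by -0.60 (-0.81 to -0.39) and *MSX2* by 0.51 (-0.18 to 1.23). The median of the mesenchymal markers was 0.95 in that comparison, with 7 of 16 higher and sums of 10620 and 19128 CPM at the anterior and posterior positions, markers of bone and dentin had a median of 1.55, and 6 of 8 endothelial markers were higher. These markers moved the same way as *LHX8*, and their part in its difference was not tested.

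Several of these differences share a column. The values of *LHX8* at -2.46, 1.78 and -3.87 all use the *Sca*/+ anterior epithelium column with its 10 steps. The values of *PITX1* at 2.01, 1.36 and 1.79 all use WT anterior mesenchyme with 29 steps. Counting error on these columns is within the intervals, but an oddity of the library behind the column would appear in each of the 3 values.

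**Figure D3:**
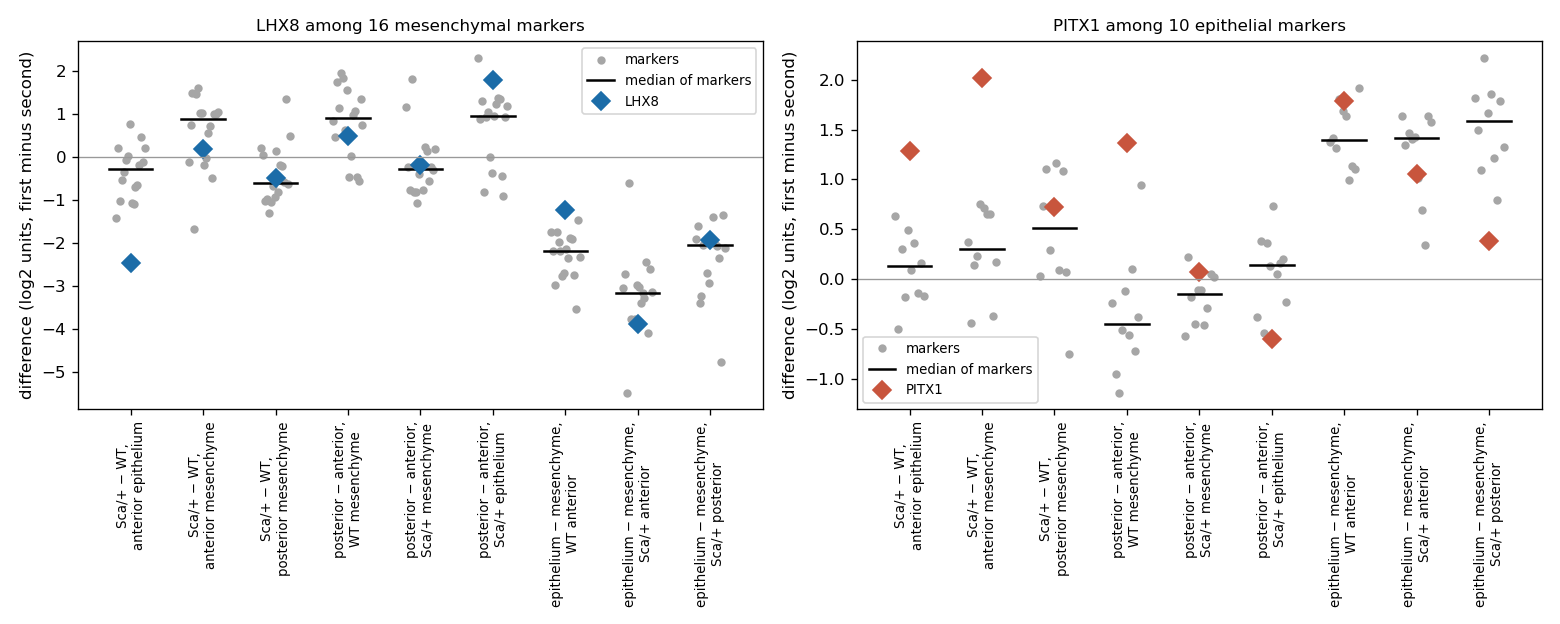
Difference of *LHX8* among the 16 mesenchymal markers (left) and of *PITX1* among the 10 epithelial markers (right) in the 9 comparisons (x axis), in log2 units (y axis), with gray points for single markers and black bars for their median. *LHX8* at -2.46 lies below all mesenchymal markers in *Sca*/+ minus WT anterior epithelium, where the lowest marker is at -1.42 (endothelial markers, with 3 values below that of *LHX8*, are not drawn), and *PITX1* at 2.01 lies above all epithelial markers in anterior mesenchyme. Markers of bone and dentin, with *IBSP* above *PITX1* there at 2.24, are not drawn.

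The ratio of *PITX1* to *LHX8* within a column does not depend on how the columns were scaled. The size of the ratio depends on the length of the transcripts and is not read, but its change between columns does not. The ratio was formed after the values were seen. On the log2 scale it was 1.42 in WT anterior, 5.17 in *Sca*/+ anterior and 2.79 in *Sca*/+ posterior epithelium. In mesenchyme it was -1.58 in WT anterior, -0.73 in WT posterior, 0.24 in *Sca*/+ anterior and 0.49 in *Sca*/+ posterior tissue. Within each compartment every *Sca*/+ column lay above every usable WT column. In epithelium the only such WT column is anterior, so the *Sca*/+ posterior ratio has no WT ratio of its own position beside it.

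*Sca*/+ minus WT, the ratio changed by 3.75 log2 units in anterior epithelium (2.64 to 4.96), by 1.83 in anterior mesenchyme (0.98 to 2.68) and by 1.21 in posterior mesenchyme (0.60 to 1.83). In anterior epithelium the genes differed in opposite directions, and in anterior mesenchyme the change lay in *PITX1*. The ratio sets a gene that was higher in epithelium over a gene that was higher in mesenchyme. In the same order of tissues, epithelial markers had medians of 0.13, 0.30 and 0.52, and mesenchymal markers of -0.27, 0.88 and -0.60. The part of tissue makeup in the changes of the ratio was not tested. Between the positions the ratio changed by 0.86 in WT mesenchyme (0.05 to 1.68), by 0.25 in *Sca*/+ mesenchyme (-0.41 to 0.90) and by -2.38 in *Sca*/+ epithelium (-3.54 to -1.36). Ratios with *MSX2* had wider intervals, and its ratio to *PITX1* changed with genotype by 1.37 (0.37 to 2.34), 1.16 (-0.43 to 2.74) and -1.47 (-4.68 to 0.71).

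**Figure D4:**
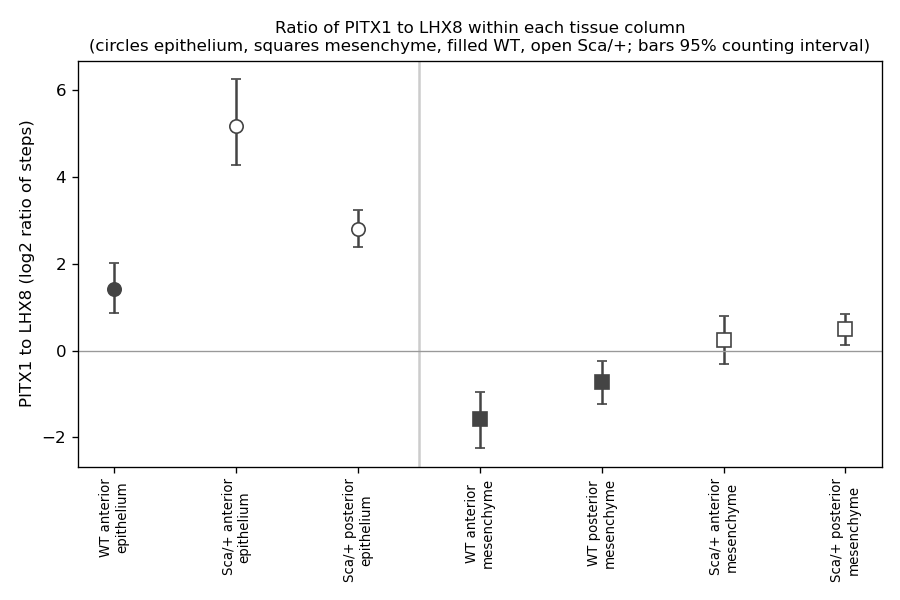
Log2 ratio of *PITX1* to *LHX8* in steps (y axis) in the 7 usable tissues (x axis), with circles for epithelium, squares for mesenchyme, filled symbols for WT, open symbols for *Sca*/+ and bars for the 95% counting interval. The ratio is highest at 5.17 in *Sca*/+ anterior epithelium and lowest at -1.58 in WT anterior mesenchyme.

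Of the relatives of the 3 genes, *MSX1*, which in the mouse is expressed in dental mesenchyme, was lower in epithelium in all 3 pairs, by -2.11 (-3.10 to -1.22), -1.95 (-2.54 to -1.38) and -1.73 (-2.26 to -1.21). It was higher in *Sca*/+ than in WT tissue by 1.22 in anterior epithelium (0.30 to 2.24) and 1.07 in anterior mesenchyme (0.53 to 1.62), and differed by 0.06 in posterior mesenchyme (-0.44 to 0.59). *MSX1* and *MSX2* therefore had unlike compartment patterns in this table. *LHX6*, the partner of *LHX8* in the mouse, fell short of the filter, with 2 to 24 steps in a column. It differed by 2.57 in anterior mesenchyme, *Sca*/+ minus WT (1.30 to 4.03), from 7 to 23 steps, while *LHX8* differed by 0.19 in the same tissue. In *Sca*/+ anterior tissue *LHX6* was lower in epithelium by -3.62 (-5.37 to -2.19, 5 against 23 steps), next to -3.87 for *LHX8*. In WT anterior tissue *LHX6* differed by -1.83 (-5.14 to 0.56, 2 against 7 steps), next to -1.22 for *LHX8*. In *Sca*/+ posterior tissue it differed by -0.93 (-1.82 to -0.04), short of 1 log2 unit, next to -1.92 for *LHX8*.

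*PRRX1*, a paired-type homeobox gene of limb and jaw mesenchyme, was lower in epithelium by -2.31, -3.13 and -2.12 in the 3 pairs, and differed by genotype by 0.22, 1.04 and 0.49. In anterior epithelium it thus did not share the difference of *LHX8*. *DLX3* and *DLX5*, members of the distal-less family that pattern the jaw along its upper to lower axis in the mouse, were below 1 log2 unit in all 3 comparisons by genotype. Their differences were -0.37, -0.09 and 0.80 for *DLX3* and 0.69, -0.54 and 0.74 for *DLX5*, each with an interval that includes 0.

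Of 228 homeobox genes listed by class, 47 were found in the table and 45 passed the filter. The table holds no gene at 0 in a usable column, so homeobox genes that are absent from some tissue are not counted here. Besides the 3 genes, 42 remained. Between the compartments 16, 22 and 18 of the 42 passed 1 log2 unit in the WT anterior pair and in the anterior and posterior pairs of *Sca*/+ tissue, which is 38.1%, 52.4% and 42.9% against 21.3%, 25.8% and 25.8% of all genes. On the mesenchymal side with *LHX8* stood *MKX*, a factor of tendon, at -4.78, -4.03 and -2.95, and *ZEB1*, a repressor of epithelial adhesion genes, at -2.42, -3.97 and -2.12. The value of -4.78 rests on 2 steps of *MKX* in WT anterior epithelium, the lowest value of that column, which 102 genes share. That of -4.03 rests on 8 steps in *Sca*/+ anterior epithelium. On the epithelial side *IRX1*, of the Iroquois family, differed by 1.32, 1.55 and 3.21, and *IRX2* by 1.75, 1.23 and 1.27. The value of 3.21 rests on 8 steps of *IRX1* in *Sca*/+ posterior mesenchyme. The list medians were -0.09, 0.07 and -0.23, and those of all genes 0.06, 0.05 and 0.04.

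By genotype the 42 genes passed 1 log2 unit with 5 higher and 4 lower in anterior epithelium (21.4% against 22.2%), 6 higher and 1 lower in anterior mesenchyme (16.7% against 19.9%) and none higher and 4 lower in posterior mesenchyme (9.52% against 17%). The count in anterior mesenchyme rests in part on 3 genes between 1.00 and 1.04, *PRRX1* among them, which fall short once all differences are centered on the median gene. In anterior epithelium *ZEB1* lay at -2.10, on the same side as *LHX8*. In posterior mesenchyme *TGIF1*, a repressor in TGF-beta signaling, lay at -2.61 and *MEIS2*, a homeodomain cofactor, at -1.99. These rest on 4 against 15 steps for *TGIF1* and 14 against 34 for *MEIS2*, *Sca*/+ against WT. Between the positions 9 genes passed in WT mesenchyme (21.4% against 17.1%), 10 in *Sca*/+ mesenchyme (23.8% against 18.7%) and 12 in *Sca*/+ epithelium (28.6% against 13.7%), the last with 9 higher and 3 lower posteriorly. The 9 that were higher included *ZEB1* at 2.77, *MKX* at 2.02 and *SIX2* at 1.64, which were also mesenchymal genes in the compartment comparisons. In the anterior column these genes had 19, 8 and 9 steps.

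**Figure D5:**
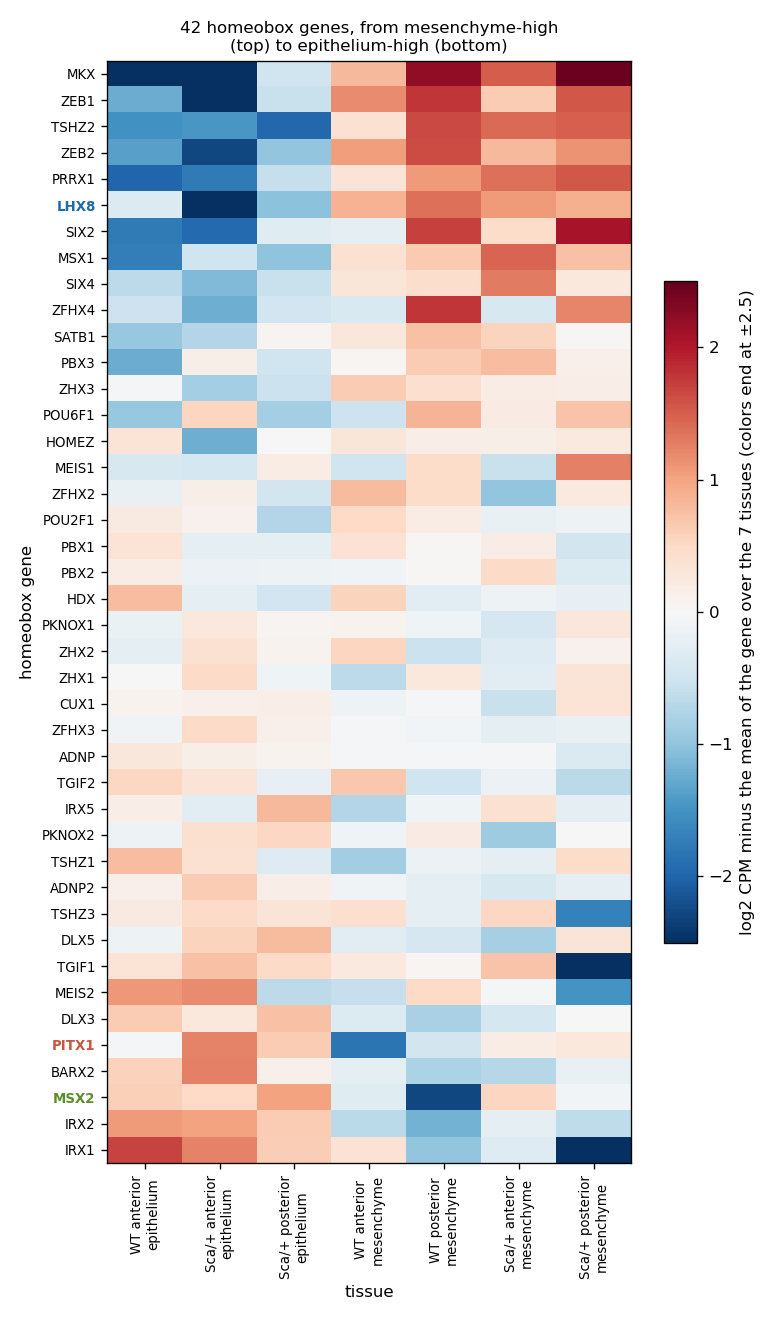
Profiles of 42 of the 45 homeobox genes past the filter, *LHX8*, *PITX1* and *MSX2* included (rows), over the 7 usable tissues (columns), colored by log2 CPM minus the mean of the gene, with rows ordered from mesenchyme-high at the top to epithelium-high at the bottom. *LHX8* sits in the block of *MKX*, *ZEB1*, *ZEB2* and *PRRX1*, and *PITX1* and *MSX2* sit among the rows of *DLX3* and *IRX2*.

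Regulators listed for mouse dental mesenchyme, without the 3 genes (13 of 24 past the filter), were lower in epithelium in 6, 7 and 6 cases and higher in 1, 1 and 0, with medians of -0.45, -1.31 and -0.32, where 12.7%, 14.3% and 13.7% of all genes were lower. *OSR2*, which restricts teeth to their row in the mouse, differed by -1.70, -3.16 and -2.98, and *PAX9*, needed beyond the bud stage there, by -1.93, -3.51 and -1.55. By genotype 5 of the 13 were higher in anterior mesenchyme and none lower (median 0.61), against 11.5% and 8.37% of all genes, among them *GLI1*, a target of hedgehog signaling, at 2.02, *ID4*, a target of BMP signaling, at 1.81 and *OSR2* at 1.28. *ID4* was higher in epithelium by 1.91 in WT anterior tissue (1.15 to 2.75), against its list. The 16 mesenchymal markers, with their median of 0.88, summed to 53295 CPM in WT and 123993 CPM in *Sca*/+ tissue there. *PRRX1* and *TWIST1* stand in both lists. The part of tissue makeup in these values was not tested.

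Regulators listed for dental epithelium, without *PITX1* (11 of 14 past the filter), were higher in epithelium in 7, 6 and 7 cases and lower in none, where 8.66%, 11.5% and 12.1% of all genes were higher. By genotype 3 were higher and none lower in anterior epithelium (median 0.64), and 3 were higher and none lower in anterior mesenchyme (median 0.37). This is 27.3% of the list each time, where 12.2% and 11.5% of all genes were higher and 22.2% and 19.9% passed 1 log2 unit in either direction. *TBX1*, which keeps dental epithelium proliferating in the mouse, was higher in both, by 1.44 and 1.30, and *SOX2*, a marker of dental stem cells, differed by 1.01 and 0.85. The *SOX2* value of 1.01, from 13 to 38 steps, lay only just past the rule. That of 0.85 stands on 14 steps in each column and comes from the step sizes alone. Of the higher genes in anterior mesenchyme, 1 (41.1 CPM in WT and 85.9 CPM in *Sca*/+ tissue) also lay only just past the rule. In posterior mesenchyme none was higher and 1 was lower, where 8.82% of all genes were higher and 8.13% lower.

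Cofactors and upstream signals of the family were few in the table. Of 10 cofactors of LIM proteins 6 passed the filter. By genotype none of the 6 was past 1 log2 unit in anterior epithelium (22.2% of all genes) or anterior mesenchyme (19.9%), and in posterior mesenchyme 1 was higher and 2 were lower (50% against 17%). The higher gene (58.4 CPM in WT and 118.4 CPM in *Sca*/+ tissue) and 1 of the lower genes (103.82 and 51.55 CPM) lay only just past the rule. *LDB1*, the bridging cofactor that LIM homeodomain proteins bind, differed by 0.06 in anterior epithelium, 0.46 in anterior mesenchyme and 0.31 in posterior mesenchyme. *LMO4*, a LIM-only protein that competes for it, differed by 0.93, 0.27 and 0.27. Of 17 signaling genes listed 8 passed the filter, and *FGF8* and *BMP4* were not among the genes analysed here. By genotype 1 of the 8 was higher and none lower in anterior epithelium (12.5% against 22.2% of all genes). The counts were the same in anterior mesenchyme (12.5% against 19.9%), and in posterior mesenchyme 1 was higher and 1 lower (25% against 17%). Those past the rule in anterior tissue are not among the genes named next. *FGF9*, a ligand of mouse dental epithelium, differed by genotype by -0.38, 0.26 and -1.52, *BMP7* by 0.81, -0.26 and 1.17, and *FGF10*, a mesenchymal ligand, by 0.69, -0.73 and -0.11. The *FGF9* value of -1.52 in posterior mesenchyme rests on 8 steps in *Sca*/+ and 14 in WT tissue. *FGF10* was lower in epithelium by -4.29, -2.88 and -2.87.

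The genes whose profiles over the 7 columns were nearest to each of the 3 were found by the root mean square distance of log2 values centered on their means. For *LHX8* these were *GLIPR2* (0.22 log2 units), *CPED1* (0.23), *PREX1* (0.29), *CHST3* (0.36) and *ITGA5* (0.37), the last an integrin that binds fibronectin. *CPED1*, for example, stood at 138.1 CPM in WT anterior, 37.1 CPM in *Sca*/+ anterior and 85.9 CPM in *Sca*/+ posterior epithelium and at 295.7 to 407.9 CPM in mesenchyme. Among homeobox genes *ZEB2*, related to *ZEB1*, lay at 0.47. For *PITX1* the nearest were *NUDT2* (0.19), *DNAH10* (0.21), *VILL* (0.24), *GART* (0.28), an enzyme of purine synthesis, and *MRRF* (0.29). For *MSX2*, *SLC25A18* (0.37), *CCDC43* (0.37) and *CORO2A* (0.39) were among the nearest, with *IRX2* as the nearest homeobox gene, at 0.64. *PITX1* and *MSX2* lay 0.99 apart, and *LHX8* lay 2.11 from *PITX1* and 2.14 from *MSX2*. The methods name 3 animals of each genotype for all tissues, so samples of a genotype share animals between compartments and positions. These distances describe the columns and were not tested.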

How the data were processed

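Libraries were depleted of rRNA and sequenced in pairs. The authors used Trimmomatic for trimming, STAR for alignment to the genome of the species and for counting, and edgeR for normalization. They also used edgeR to test differences between groups with 3 biological replicates, and results of those tests are not given here. Versions, and whether strand was used in counting, are not given in the sources used here. The authors deposited log2 CPM, named as means, in 8 group columns, without values of single animals. It is not known if 1 library or a pool lies behind a column. Base 2 was taken because the values then sum to between 861122 and 1047960 CPM per column. The highest sum is above what all reads of an unscaled library give in CPM, so library sizes were scaled. The value of 1 step was found from the low values, and intervals of differences (Clopper-Pearson, 95%), of levels (exact Poisson) and of ratio changes (exact conditional) used the steps as counts. The filter was a mean of 3 log2 CPM. Symbols were used as deposited, 9891 of them match the RefSeq annotation, and no coordinates were used. The 3 genes and all lists were chosen with earlier results of these data known. Of each list up to 4 genes with the largest differences were named, with MSX, LHX, DLX and PRRX genes and the 5 nearest profiles with a symbol, except for some genes not reported here. *IRX2*, *ZEB2*, *LDB1*, *LMO4*, *SOX2*, *COL1A1*, *ESRP1* and *CDH1* were named for their roles, after their values were seen. Alternatives were centring on the median, scaling to the table total, a trimmed mean, a pseudocount of 1 CPM, a rule of 0.58 and other filters. The code was tested on simulated data. Tools were scipy 1.17.1, pandas 2.3.3 and numpy 2.4.6 in Python 3.11.15, with matplotlib 3.10.9.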

Additional observations from a re-analysis of the deposited data

Results flagged for a closer look

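The position difference of *PITX1* had opposite signs in 2 tissues, each with a counting interval that excludes 0. Posterior minus anterior, it was 1.36 log2 units in WT mesenchyme and -0.60 in *Sca*/+ epithelium. These tissues differ in both genotype and compartment, WT posterior epithelium was not analysed here, and the difference between them was not tested.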

How the results depend on the processing

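All 27 differences of *LHX8*, *PITX1* and *MSX2* stayed within their counting intervals under the 4 alternatives of scaling and pseudocount, and none crossed 1 log2 unit. The largest shift was 0.46 log2 units with the pseudocount. Scaling to the table total moved values by up to 0.26 and turned the sign of 2 small differences, *LHX8* in anterior mesenchyme by genotype (0.19 to -0.04) and *MSX2* between the compartments of *Sca*/+ anterior tissue (-0.03 to 0.09). Counts of homeobox genes here are over all 45 past the filter, *LHX8*, *PITX1* and *MSX2* included. Centring on the median left 5 of them past 1 log2 unit by genotype in anterior mesenchyme, against 8. With a rule of 0.58 log2 units, homeobox genes past it numbered 18 in anterior epithelium, 22 in anterior mesenchyme and 14 in posterior mesenchyme by genotype, and by position 21 and 26 in WT and *Sca*/+ mesenchyme and 23 in *Sca*/+ epithelium. Shares of all genes past 0.58 were 46.2%, 43.3% and 38.5% by genotype, 37.2%, 39.9% and 33.9% by position and 42.4%, 47.1% and 46.4% by compartment, in the same orders. With a filter at 5 log2 CPM the shares past 1 log2 unit were 12.3% and 8.66% by genotype in anterior and posterior mesenchyme and 9.77%, 8.70% and 7.41% by position. Depth limits *MSX2* most, with 2 to 58 steps. No paired analysis was possible because the columns carry no replicate numbers, and for the same reason no replicate could be left out.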
